A study of Homo sapiens with 18 samples.

Results

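The genes of the endoplasmic reticulum (ER) chaperones and the unfolded protein response were followed here in 3 lung cell lines before and after radiation. The 10 genes are HSPA5, HSP90B1, CALR, PDIA4, DNAJB9, SDF2L1, HERPUD1, XBP1, ATF6 and ERN1. They were chosen by name, with no measured value in the rule, and all 10 of 10 were found among the 18475 genes of the table by symbol and Entrez identifier. RNA-seq was performed to ask whether normal lung epithelial cells and lung cancer cells respond differently to radiation. The cells were BEAS-2B, a bronchial epithelial cell line, H446, labelled a small cell lung cancer cell line, and A549, a lung adenocarcinoma cell line, each labelled wild type and grown in 1 culture medium. Of each line, 3 control libraries were left unirradiated and 3 received a single dose of 10 Gy X-ray, which makes 18 libraries in 6 groups. RNA was taken 24 h after radiation, while the labels give no time for the controls. Each group comes from 1 cell line, so that a difference between lines is a difference between these lines and not between normal and cancer cells in general.

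The lumen of the ER is where secreted and membrane proteins are folded, by chaperones such as BiP (HSPA5) and GRP94 (HSP90B1), by lectin chaperones such as calreticulin (CALR) and by disulfide isomerases such as ERp72 (PDIA4). When unfolded proteins accumulate, sensors in the ER membrane are activated. IRE1 (ERN1) splices the mRNA of XBP1 into the form that encodes an active transcription factor, ATF6 is cut to release a transcription factor, and PERK (EIF2AK3) phosphorylates eIF2α, which raises translation of ATF4, a transcription factor that in turn raises transcription of DDIT3, the gene of CHOP. The values here are mRNA levels per gene, so that splicing of XBP1, cleavage of ATF6 and phosphorylation were not measured.

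XBP1 and ATF6 act on short promoter elements, which are shown for the genes that have a match. These are known elements of this response, so matches among the 10 genes are a description and not a finding of these data. The ER stress response element (ERSE) is CCAAT followed, after a gap of 9 bases, by CCACG, and the related ERSE-II is ATTGG followed, after a gap of 1 base, by CCACG. Both strands were searched in the 250 bases before each start of transcription in RefSeq (GRCh38.p14). The ERSE was found in 26 of 35116 windows (0.074%), and 4 of the 10 genes had one, with HSP90B1 having a pair. The ERSE-II was found in 18 windows (0.0513%), among them those of HERPUD1 and SDF2L1. The UPRE core TGACGTGG was found in 215 windows (0.612%) and in none of the 12 windows of the 10 genes. No ERSE or ERSE-II match was found for PDIA4, DNAJB9, ATF6 or ERN1. A match is a description of letters and does not show binding. The sequences are given 5′ to 3′ on the strand of the gene, with the fixed letters of the element in capitals. On the other strand an ERSE reads as CGTGG, the gap and ATTGG, as in CALR and the proximal element of HSP90B1, and an ERSE-II as CGTGG, the gap and CCAAT, as in SDF2L1. Of HSP90B1 only the elements are shown, since they lie in an annotated exon.
HSPA5 (chr9:125241361-125241469, minus strand): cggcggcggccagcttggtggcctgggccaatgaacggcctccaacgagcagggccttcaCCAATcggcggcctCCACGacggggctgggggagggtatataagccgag
HSP90B1, distal (chr12:103930216-103930234, plus strand): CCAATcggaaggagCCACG
HSP90B1, proximal (chr12:103930321-103930339, plus strand): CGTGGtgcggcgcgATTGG
CALR (chr19:12938359-12938432, plus strand): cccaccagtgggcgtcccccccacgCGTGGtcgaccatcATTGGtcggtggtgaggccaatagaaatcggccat
XBP1 (chr22:28800598-28800681, minus strand): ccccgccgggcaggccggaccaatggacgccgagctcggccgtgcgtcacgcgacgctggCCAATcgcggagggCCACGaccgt
HERPUD1 (chr16:56931965-56932047, plus strand): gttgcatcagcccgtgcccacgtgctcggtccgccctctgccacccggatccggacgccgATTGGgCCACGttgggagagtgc
SDF2L1 (chr22:21642054-21642154, plus strand): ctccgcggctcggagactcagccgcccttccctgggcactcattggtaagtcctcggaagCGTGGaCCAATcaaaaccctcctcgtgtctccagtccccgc

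The deposited values are treated as FPKM, a level scaled by transcript length and by the reads of each library. This scaling does not make the totals equal, which ranged from 461255 to 529936 FPKM per library. Some comparisons between lines changed under equal totals or quantile normalization, as given below. The number of reads is unknown, and no counting error can be given. The library labelled BEAS-2B 10 Gy replicate 2 stood apart from its group. Over 8 targets of p53, the median log2 difference from the control mean was 1.09 and 1.41 in the irradiated replicates 1 and 3 and 0.055 in replicate 2, so that results of irradiated BEAS-2B cells are also given without it. Of the 6 epithelial markers, 4 had a mean of at least 1 FPKM in each group. KRT8, KRT18 and KRT19 did so in every group, while EPCAM was below 1 FPKM in A549 and CDH1 in BEAS-2B and H446 cells. In H446, labelled a small cell line, 0 of the 5 neuroendocrine markers analysed had a mean of at least 1 FPKM, with sums between 0.18 and 0.37 FPKM per library. The same markers summed to between 4.36 and 6.1 FPKM in BEAS-2B and between 8.76 and 11.37 in A549 libraries. The defining markers of the label are thus near 0 in H446, and the identity of the line was not tested here. The leukocyte markers summed to between 8.18 and 34.84 FPKM per library and the mesenchymal and fibroblast markers, VIM among them, to between 853 and 1569, against 899 to 2627 for the epithelial ones.

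In unirradiated cells, HSP90B1, CALR and HSPA5 were the leading members in every line, and ERN1 and DNAJB9 were at the low end. HSP90B1 ranked 126th of all genes in BEAS-2B cells, 97th in H446 and 124th in A549 cells by mean FPKM. Together the 10 genes summed to 1917 ± 47.16 FPKM in H446 controls, 1472 ± 55.02 in those of BEAS-2B and 1348 ± 24.99 in those of A549 (SD, n = 3), and to 2102 ± 42.25, 1486 ± 57.71 and 1416 ± 48.75 after radiation. The irradiated BEAS-2B libraries summed to 1541 and 1426 in replicates 1 and 3 and to 1492 in replicate 2. Between the lines, 9 of the 10 genes differed in A549 against BEAS-2B cells, 7 in H446 against BEAS-2B and 9 in H446 against A549 at an adjusted p under 0.05 (limma). The same held for 83.8%, 81.1% and 83.2% of the 13071 genes tested, so these counts are near what the lines show in general.

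The widest gap between lines was that of ERN1, the IRE1 sensor. The ERN1 controls read 11.9, 10.8 and 11.6 FPKM in A549 cells, 1.02, 1.1 and 1.04 in H446 and 0.99, 0.98 and 0.9 in BEAS-2B cells. The A549 level was thus 11.9 times that of BEAS-2B (log2 difference 2.67, SE 0.07, adjusted p = 4.22e-17, limma), while H446 and BEAS-2B did not differ beyond their spread (log2 difference 0.07, SE 0.07, adjusted p = 0.367, limma). Under quantile normalization the latter pair did differ (adjusted p = 0.00868, limma). HERPUD1, a membrane protein of the machinery that passes misfolded proteins out of the ER for degradation, ranked highest in A549, then H446, then BEAS-2B. Its control means were 54.9 ± 2.503, 34.1 ± 2.32 and 12.8 ± 0.275 FPKM (SD, n = 3), 4.30 times higher in A549 than in BEAS-2B cells, and each neighbouring pair differed (adjusted p = 2.46e-08 for H446 against A549 and 8.32e-13 for H446 against BEAS-2B, limma).

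HSPA5, the central HSP70 chaperone of the ER, was highest in H446. Its mean there was 389.8 ± 9.48 FPKM, against 205 ± 7.73 in A549 and 175 ± 14.02 in BEAS-2B controls (SD, n = 3). The step from BEAS-2B to A549 was the smaller one (log2 difference 0.23, SE 0.07, adjusted p = 0.00632, limma). ATF6 followed the same order, H446 above A549 above BEAS-2B (adjusted p = 4.65e-07 and 0.00922 for the neighbouring pairs in limma). CALR separated A549 from the other lines, with a mean of 316 FPKM in A549 against 568 in BEAS-2B and 590 in H446, and BEAS-2B and H446 did not differ beyond their spread (adjusted p = 0.381, limma). With equal totals they did (adjusted p = 0.0322), and likewise after GC correction with or without the block. PDIA4 did the reverse, at 107 FPKM in A549 against 58.7 in BEAS-2B and 60.05 in H446 (adjusted p = 0.648 between BEAS-2B and H446, limma).

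XBP1 had means of 93.9 FPKM in H446 and 93.7 in A549, which did not differ beyond their spread (log2 difference 0.0012, SE 0.04, adjusted p = 0.983, limma) except under quantile normalization (log2 difference -0.12, adjusted p = 0.0184, limma). Its level in BEAS-2B was 1.54 times lower than in either cancer line. SDF2L1, a subunit of an ER chaperone complex, was highest in H446 at 21.8 FPKM, and BEAS-2B (15.4) and A549 (14.1) did not differ beyond their spread (adjusted p = 0.295, limma), except without BEAS-2B control replicate 2 (adjusted p = 0.0398). DNAJB9, a co-chaperone of BiP also known as ERdj4, was lowest in H446 at 3.83 FPKM, against 7.45 in BEAS-2B and 9.03 in A549. Its difference between A549 and BEAS-2B (log2 difference 0.25, SE 0.09, adjusted p = 0.0181, limma) missed the threshold without BEAS-2B control replicate 2 (adjusted p = 0.123) or A549 control replicate 2 (adjusted p = 0.0542). HSP90B1 was highest in H446, and its step from A549 to BEAS-2B, 514 against 554 FPKM (adjusted p = 0.0386, limma), passed the threshold in 18 of 27 alternatives. DNAJB9, HSP90B1 and CALR share exon stretches of 99 to 270 bases with genes on the other strand. Counting by strand is not stated, so reads within these stretches cannot be told apart from those of their partners. Processed pseudogenes of HSP90B1 and XBP1 are annotated, and their effect on the reads was not tested.

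**Figure D1:**
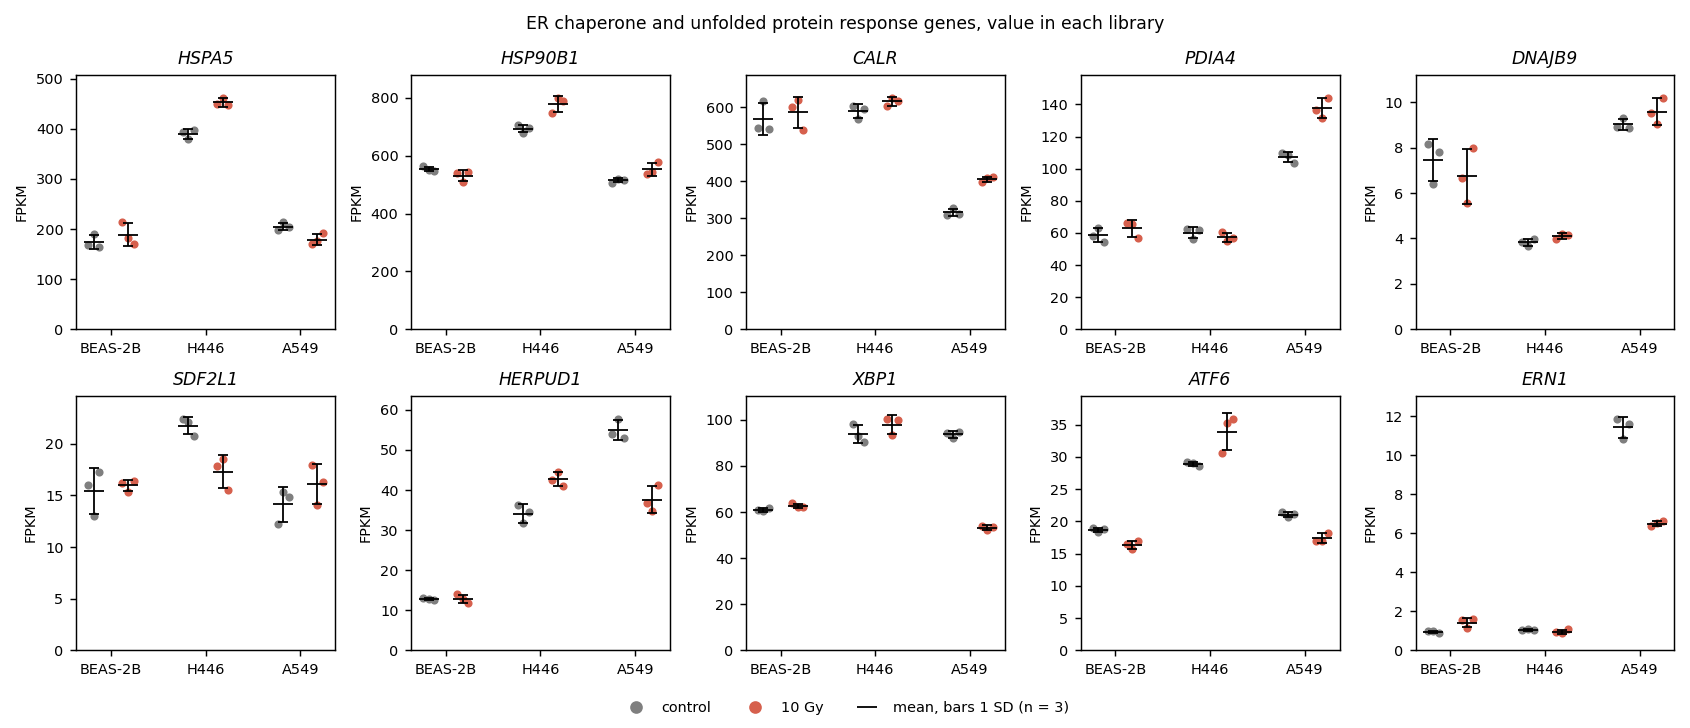
FPKM of the 10 genes (one panel each, vertical axis from 0) in the 18 libraries, with the 3 lines on the horizontal axis, controls in grey and 10 Gy in red, and bars giving the mean and 1 SD of 3 libraries. In A549 cells the irradiated libraries of XBP1 (52.3 to 54.2 FPKM) lie far below the controls (92.1 to 94.9 FPKM).

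After 10 Gy, 8 of the 10 genes changed in A549 cells, 5 in H446 and 0 in BEAS-2B cells at an adjusted p under 0.05 in limma. In A549, 3 rose (CALR, PDIA4 and HSP90B1) and 5 fell (XBP1, ERN1, HERPUD1, ATF6 and HSPA5). In H446, 4 rose (HERPUD1, ATF6, HSPA5 and HSP90B1) and 1 fell (SDF2L1). Of all genes tested, 51.7% passed the threshold in A549 (25.3% higher and 26.4% lower), 38.4% in H446 (14.8% higher and 23.6% lower) and 0% in BEAS-2B. The median log2 fold change of the 10 genes was -0.06 in A549, 0.07 in H446 and 0.04 in BEAS-2B (0.03 without replicate 2), beside -0.00396, -0.03 and 0.00186 over all genes tested. These member medians rest on small values. In A549 the median was -0.106 without 10 Gy replicate 3 and -0.0358 without 10 Gy replicate 2, also nearer to 0 without control replicate 2 (-0.0369) or 10 Gy replicate 1 (-0.0405). In BEAS-2B it was 0.0199 without 10 Gy replicate 1, 0.0227 without control replicate 2 and 0.00874 after GC correction, and in H446 it was 0.119 under quantile normalization. HSPA5, ATF6 and HERPUD1 rose in H446 and fell in A549, HSP90B1 rose in both, and DNAJB9 passed the threshold in neither. In BEAS-2B cells, 1446 of 11734 genes (12.3%) had an unadjusted p under 0.05, and without replicate 2 of the irradiated group 231 genes (1.97%) passed the adjusted threshold, among them 0 of the 10. The labels do not say that libraries came from separate cultures, so these p-values measure the spread between libraries, which may be technical. An exact permutation test of 3 against 3 libraries cannot give a p below 0.10. In RNA from whole cultures, fewer expressing cells and less RNA per cell cannot be told apart.

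**Figure D2:**
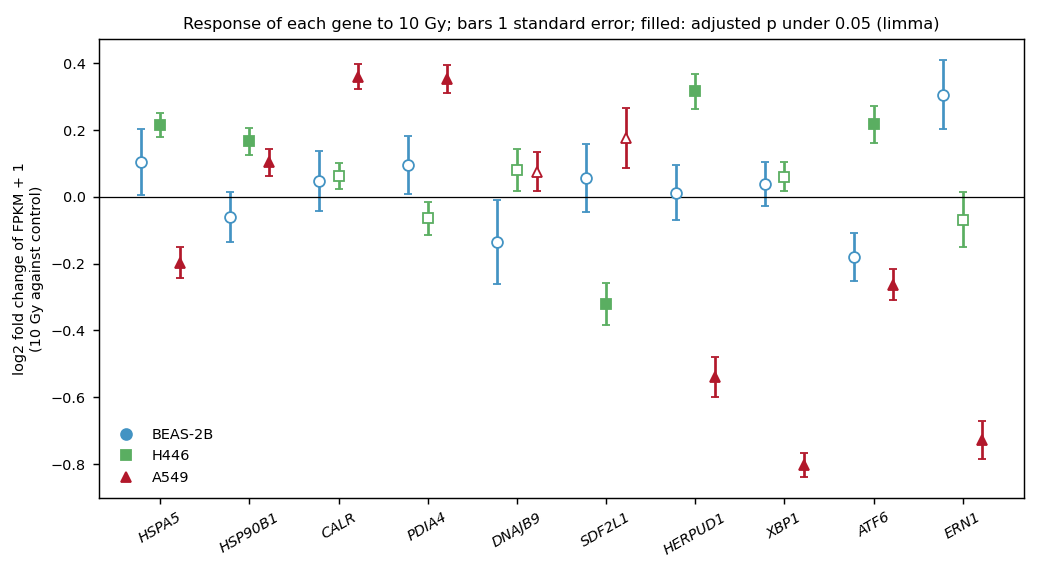
Log2 fold change of FPKM + 1 after 10 Gy against control for each of the 10 genes (horizontal axis) in BEAS-2B (circles), H446 (squares) and A549 cells (triangles), with bars of 1 standard error and filled symbols for an adjusted p under 0.05. XBP1, ERN1 and HERPUD1 stand lowest, in A549 cells, at -0.80, -0.73 and -0.54.

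Among the chaperones, HSPA5 rose in H446 and fell in A549 cells. In H446, HSPA5 was at 394, 379 and 397 FPKM in the controls and at 449, 462 and 447 after radiation. Every irradiated library lay above every control, by 1.16-fold in the mean (log2 fold change 0.22, SE 0.04, adjusted p = 0.0014, limma). In A549, HSPA5 went from 198, 213 and 204 to 169.7, 176 and 191 FPKM (log2 fold change -0.20, SE 0.05, adjusted p = 0.00401, limma), and again the groups did not overlap. With no filter on low values the A549 call was lost (adjusted p = 0.0517, limma). In BEAS-2B, the HSPA5 controls read 169, 191 and 165 and the irradiated libraries 214, 183 and 169 FPKM. These groups overlapped (log2 fold change 0.10, SE 0.10, adjusted p = 0.662, limma; without replicate 2, log2 fold change 0.12, adjusted p = 0.75, limma).

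HSP90B1, the ER member of the HSP90 family, was higher after radiation in both cancer lines, though the A549 change was small. In H446, HSP90B1 read 706, 680.05 and 695 FPKM in the controls and 748, 800.5 and 788 after radiation (log2 fold change 0.17, SE 0.04, adjusted p = 0.00954, limma). In A549, it read 507, 519 and 517 FPKM in the controls and 537, 543 and 579 after radiation (log2 fold change 0.10, SE 0.04, adjusted p = 0.0439, limma). All irradiated libraries lay above the controls in both lines, but the A549 call passed the threshold in only 4 of 16 alternatives. The H446 call passed in 15 of 16 and was lost under GC correction with the replicate block (adjusted p = 0.0746, limma). In BEAS-2B, the irradiated libraries of HSP90B1 (542, 509.6 and 543 FPKM) lay just below the controls (563, 551 and 548.75 FPKM), with no call (adjusted p = 0.745, and 0.942 without replicate 2, limma).

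CALR and PDIA4 rose in A549 cells and passed the threshold in neither other line. The A549 controls of CALR, the soluble lectin chaperone that holds glycoproteins until they are folded, were at 309, 327 and 313 FPKM, and the irradiated libraries at 398, 409 and 411. This is a 1.28-fold rise in the mean with no overlap (log2 fold change 0.36, SE 0.04, adjusted p = 7.96e-06, limma). PDIA4, which forms and exchanges disulfide bonds, went from 109.8, 109 and 104 to 137, 132 and 144 FPKM in A549, also 1.28-fold and with no overlap (log2 fold change 0.35, SE 0.04, adjusted p = 2.54e-05, limma). In H446, CALR read 605, 569 and 596 FPKM in the controls and 603, 626 and 619 after radiation and overlapped (log2 fold change 0.06, SE 0.04, adjusted p = 0.231, limma). PDIA4 in H446 read 62.2, 56.1 and 61.8 FPKM in the controls and 60.3, 55 and 56.8 after radiation and overlapped as well (log2 fold change -0.06, SE 0.05, adjusted p = 0.322, limma). In BEAS-2B, both genes overlapped between groups (CALR 0.05, adjusted p = 0.836; PDIA4 0.09, adjusted p = 0.654; log2 fold changes, limma), also without replicate 2 (0.0061 and 0.06).

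SDF2L1 was the one gene of the 10 that fell in H446. Its controls there read 22.4, 22.1 and 20.8 FPKM and its irradiated libraries 17.8, 18.5 and 15.5. The groups did not overlap, and the mean was 1.26 times lower (log2 fold change -0.32, SE 0.06, adjusted p = 0.00305, limma). SDF2L1 has a GC content of 65.5%, higher than that of 96.8% of genes, and in H446 the trend of the libraries on GC content separated the groups (Spearman 0.347 to 0.459 over genes in the controls, -0.496 to -0.106 after radiation). After each library was corrected for its GC trend, the log2 fold change of SDF2L1 in H446 was -0.19 (adjusted p = 0.0257, limma), and the calls of HSPA5, HSP90B1, ATF6 and HERPUD1 in H446 held as well. With the replicate block added, that of HSP90B1 was lost. With no filter on low values, those of SDF2L1 and ATF6 were lost. Log2 fold changes of genes outside the 10 are given without GC correction. In BEAS-2B the GC trend also differed between libraries (-0.629 to 0.0133 in the controls, -0.312 to 0.705 after radiation). In A549, SDF2L1 read 12.2, 15.3 and 14.9 FPKM in the controls and 17.9, 14.1 and 16.3 after radiation and overlapped (log2 fold change 0.18, SE 0.09, adjusted p = 0.118, limma; adjusted p = 0.0252 without 10 Gy replicate 2). In BEAS-2B it overlapped too (adjusted p = 0.823, and 0.847 without replicate 2, limma). DNAJB9 passed the threshold in no line. Its log2 fold changes were 0.08 in A549 (adjusted p = 0.297), 0.08 in H446 (0.333) and -0.13 in BEAS-2B (0.658, and 0.967 without replicate 2, limma), with overlapping groups in all 3 lines.

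HERPUD1 had the widest split between the cancer lines among genes that changed in both. In H446, it was at 36.3, 31.7 and 34.4 FPKM in the controls and 42.6, 44.5 and 41.01 after radiation. All 3 irradiated libraries were higher, 1.25-fold in the mean (log2 fold change 0.32, SE 0.05, adjusted p = 0.0012, limma). In A549, HERPUD1 went the other way, from 53.9, 57.8 and 53.1 to 36.8, 34.6 and 41.3 FPKM, 1.46 times lower and with no overlap (log2 fold change -0.54, SE 0.06, adjusted p = 1.46e-05, limma). In BEAS-2B, controls (13.1, 12.8 and 12.5 FPKM) and irradiated libraries (13.96, 12.8 and 11.9 FPKM) overlapped (log2 fold change 0.01, SE 0.08, adjusted p = 0.958, limma; adjusted p = 0.97 without replicate 2, limma).

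Among the sensors and their transcription factors, ERN1 (IRE1) and XBP1 both fell in A549 cells. XBP1, whose spliced form drives chaperone and degradation genes, read 94.2, 92.1 and 94.9 FPKM in the A549 controls and 54.1, 52.3 and 53.4 after radiation. The irradiated libraries were far below, 1.76-fold in the mean (log2 fold change -0.80, SE 0.04, adjusted p = 7.05e-09, limma), the largest log2 fold change of the 10 genes in any line. ERN1 read 11.9, 10.8 and 11.6 FPKM in the A549 controls and 6.36, 6.51 and 6.62 after radiation, also 1.76 times lower (log2 fold change -0.73, SE 0.06, adjusted p = 7.46e-07, limma). Irradiated A549 cells still had more ERN1 than either other line. In H446, XBP1 read 98.1, 92.9 and 90.6 FPKM in the controls and 100.5, 93.3 and 100.04 after radiation and overlapped (log2 fold change 0.06, SE 0.04, adjusted p = 0.285, limma), and ERN1 stayed near 1 FPKM and overlapped (log2 fold change -0.07, SE 0.08, adjusted p = 0.543, limma).

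In BEAS-2B, the irradiated libraries of ERN1 (1.53, 1.14 and 1.61 FPKM) all lay above the controls (0.99, 0.98 and 0.9 FPKM). The difference did not pass the threshold (log2 fold change 0.31, SE 0.10, adjusted p = 0.291, limma), nor did it without replicate 2 (log2 fold change 0.39, adjusted p = 0.0946, limma), and the gene passed the filter on low values only through its irradiated libraries. Fitted with all 18 libraries, where 842 of 13071 genes passed in BEAS-2B, ERN1 did pass (adjusted p = 0.0171, limma). Over all alternatives the log2 fold change of ERN1 in BEAS-2B ranged from 0.25 to 0.52. XBP1 also lay above the controls in every irradiated BEAS-2B library, but by little (60.7, 60.3 and 61.7 against 63.7, 62.2 and 62 FPKM; adjusted p = 0.807, and 0.884 without replicate 2, limma).

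ATF6 rose in H446 and fell in A549 cells. In H446 its controls read 29.2, 29.02 and 28.6 FPKM and its irradiated libraries 30.6, 35.2 and 35.9, all of them higher (log2 fold change 0.22, SE 0.06, adjusted p = 0.0118, limma). With no filter on low values the H446 call was lost (adjusted p = 0.0921, limma). In A549 it read 21.4, 20.7 and 21.1 FPKM in the controls and 17.02, 16.9 and 18.3 after radiation, with every irradiated library lower (log2 fold change -0.26, SE 0.05, adjusted p = 5.48e-04, limma). In BEAS-2B, the irradiated libraries (16.5, 15.7 and 16.9 FPKM) were all below the controls (18.96, 18.3 and 18.7 FPKM) without passing the threshold (log2 fold change -0.18, SE 0.07, adjusted p = 0.364, limma; adjusted p = 0.502 without replicate 2, limma). In all, the groups of 4 of the 10 genes did not overlap in BEAS-2B, of 5 in H446 and of 8 in A549 cells, beside 16.4%, 50.3% and 58.5% of all genes tested. The 4 genes in BEAS-2B include ERN1, which passed the filter on low values only through its irradiated libraries, so that nothing is read from that count.

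Whether the lines differed in their response was tested directly, as the difference of log2 fold changes in 1 fit of 18 libraries, in 30 tests over the 10 genes and 3 pairs of lines. Pairs that include the same line share its libraries. Between A549 and H446, 8 of the 10 genes differed, against 34.6% of all genes tested (19.3% with a higher response in A549 and 15.3% with a lower one). A549 was lower than H446 in the response of XBP1 (log2 difference -0.86, SE 0.06, adjusted p = 1.02e-08, limma), HERPUD1 (-0.86, adjusted p = 3.54e-06), ERN1 (-0.66), ATF6 (-0.48) and HSPA5 (-0.41), and higher in that of SDF2L1 (0.50), PDIA4 (0.42) and CALR (0.30). HSP90B1 (log2 difference -0.06, SE 0.07, adjusted p = 0.485, limma) and DNAJB9 (log2 difference -0.0054, SE 0.13, adjusted p = 0.98, limma) did not differ beyond their error. Under quantile normalization HSP90B1 passed and CALR did not, which left 2 genes higher and 6 lower.

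Between BEAS-2B and A549, 6 of the 10 genes differed, against 30.6% of all genes (16% with a higher response in BEAS-2B and 14.6% with a lower one). The response of BEAS-2B was higher for ERN1 (log2 difference 1.03, SE 0.10, adjusted p = 7.29e-07, limma), XBP1 (0.84), HERPUD1 (0.55) and HSPA5 (0.30), and lower for CALR (-0.31) and PDIA4 (-0.26). Those of HSPA5 and PDIA4 passed the threshold in 18 and 15 of 27 alternatives, and under quantile normalization 3 genes were higher (ERN1, XBP1 and HERPUD1) and 0 lower. Between BEAS-2B and H446, 4 of the 10 genes differed, against 22.7% of all genes (13.7% with a higher response in BEAS-2B and 8.99% with a lower one). The response of BEAS-2B was lower for ATF6 (-0.40, adjusted p = 0.0022, limma), HERPUD1 (-0.30) and HSP90B1 (-0.23), and higher for ERN1 (0.37). For ERN1, near 1 FPKM in both lines, this difference ranged from 0.31 to 0.64 over the alternatives. HERPUD1 and HSP90B1 passed in 23 and 22 of 27 alternatives, both being lost without BEAS-2B control replicate 1, H446 control replicate 2 or H446 10 Gy replicate 2 (2 of the 10 genes left), and HSP90B1 also under GC correction. Under GC correction with the block, HERPUD1, HSP90B1 and ERN1 were all lost, which left 1 of the 10 genes (ATF6), where 1774 of all 12930 genes passed. Without replicate 2 of irradiated BEAS-2B cells, 18.5% of all genes differed between BEAS-2B and H446 and 30% between BEAS-2B and A549, and the same genes of the 10 passed, with ERN1 at 0.46 and 1.12 (log2). Without replicate 3 of the same group, DNAJB9 also differed from A549 (-0.32, adjusted p = 0.0367) and H446 (-0.33, adjusted p = 0.0354, limma), HSP90B1 from A549 (-0.18) and PDIA4 from H446 (0.23).

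The remaining genes of the pathway were taken from 7 lists with 85 genes. In A549, 53 of 83 tested passed the threshold (63.9%, 31 higher and 22 lower), in H446 28 of 85 (32.9%, 15 higher and 13 lower) and in BEAS-2B 0 of 85, or 1 without replicate 2. These shares stand beside 51.7%, 38.4% and 0% of all genes. By list, the median log2 fold change in A549 lay between -0.0154 and 0.0752 for 6 of the 7 lists and at -1.56 for the PERK branch.

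**Figure D3:**
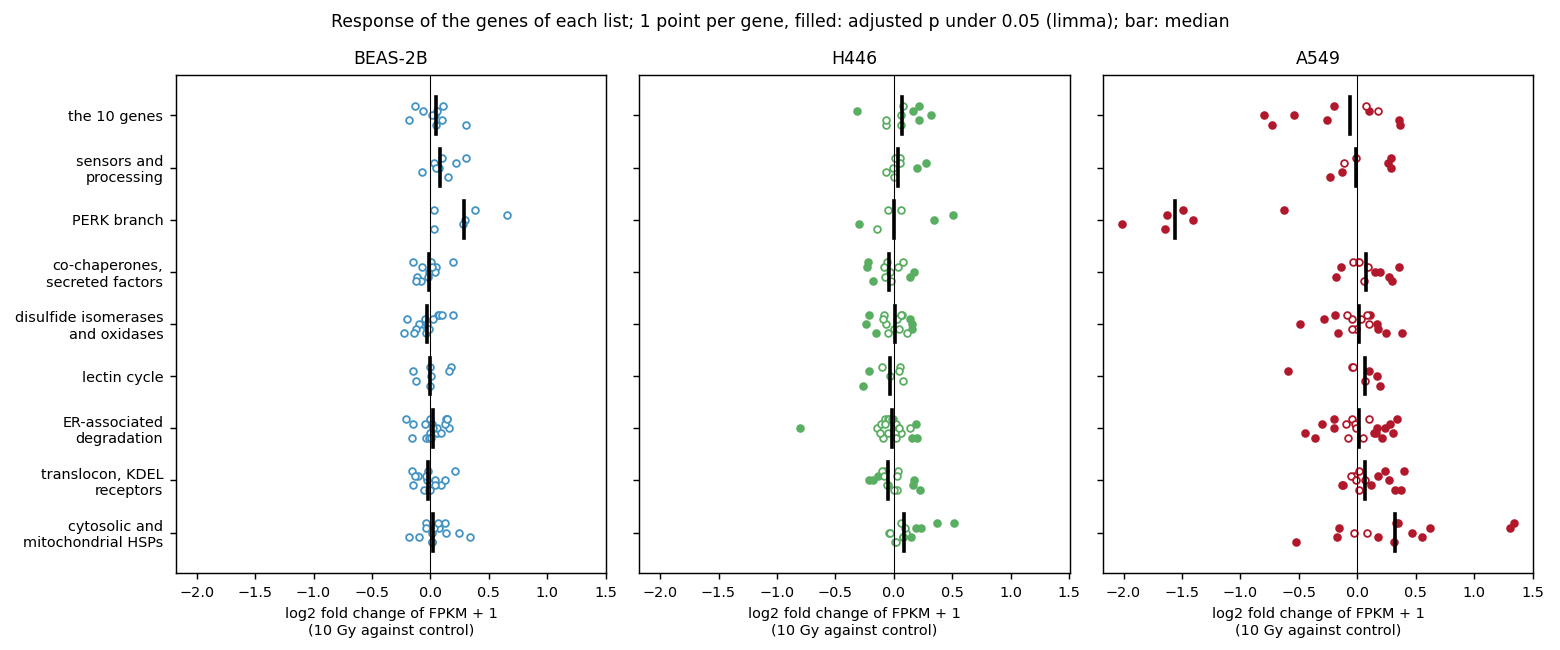
Log2 fold change of FPKM + 1 after 10 Gy (horizontal axis) for the 10 genes, the 7 pathway lists and a list of heat shock proteins outside the ER (vertical axis), in BEAS-2B, H446 and A549 cells, with 1 point per gene, filled for an adjusted p under 0.05, and a bar at the median of each list. The list of PERK branch genes in A549 cells, with a median of -1.56, stands apart from the other lists.

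All 6 genes listed here as the PERK branch fell in A549 cells. Their mRNA levels are no measure of PERK activity, since phosphorylation of eIF2α was not measured. ATF4 is the transcription factor of the branch, DDIT3 encodes CHOP, PPP1R15A encodes GADD34, which directs dephosphorylation of eIF2α, and TRIB3, ASNS and CHAC1 are targets of ATF4 and CHOP. TRIB3 went from 91.7, 89.96 and 90.4 to 22.9, 21.9 and 20.5 FPKM (log2 fold change -2.01, SE 0.04, adjusted p = 3.41e-11, limma), and DDIT3 from 83.6, 88.2 and 84.3 to 25.5, 26.7 and 28.7 FPKM (log2 fold change -1.63, SE 0.05, adjusted p = 1.87e-10, limma). The irradiated libraries of ASNS, which encodes asparagine synthetase, were at 43.95, 42.6 and 43.2 FPKM against 135, 143 and 135 in the controls (log2 fold change -1.65, SE 0.04, adjusted p = 3.41e-11, limma). CHAC1 (-1.49), PPP1R15A (-1.41) and ATF4 (-0.63) fell as well, and no library of either group overlapped for any of the 6. Of all genes tested in A549, 51.7% passed the threshold (26.4% lower) and 58.5% did not overlap. The fall differed from the response of each other line for all 6 genes (limma), TRIB3 for example by -1.71 against H446 (adjusted p = 5.18e-10). Of all genes tested, 34.6% differed in response between A549 and H446 and 30.6% between BEAS-2B and A549. EIF2AK3, the gene of PERK itself, rose in A549 (log2 fold change 0.26, SE 0.06, adjusted p = 0.00544, limma) and in H446 (log2 fold change 0.28, SE 0.06, adjusted p = 0.00633, limma).

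The A549 controls had started from higher levels of these genes. Unirradiated TRIB3 read 13.8, 14.8 and 12.9 FPKM in BEAS-2B and 17.6, 17.6 and 17.7 in H446, well under the A549 controls (log2 difference 2.63, SE 0.06, adjusted p = 1.59e-17, limma), and irradiated A549 cells still lay above both. ASNS (3.51), CHAC1 (3.82), DDIT3 (2.32), PPP1R15A (1.56) and ATF4 (1.03) were likewise higher in A549 than in BEAS-2B controls (log2 differences, limma). These contrasts share the A549 controls with the A549 response, so that the level before and the fall after radiation are not independent.

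In H446, 3 of the 6 PERK branch genes changed (50%, beside 38.4% of all genes), 2 higher and 1 lower, with a list median of 0.00386. DDIT3 rose from 7.68, 5.74 and 7.37 to 10.4, 12.6 and 8.03 FPKM (log2 fold change 0.50, SE 0.13, adjusted p = 0.0143, limma), PPP1R15A rose (0.34) and TRIB3 fell (log2 fold change -0.30, SE 0.06, adjusted p = 0.0032, limma). Under quantile normalization 4 passed, 2 in each direction. In BEAS-2B, 0 of 6 passed and the median was 0.29 (without replicate 2, 1 of 6 passed, beside 1.97% of all genes, and the median was 0.31). All 6 had a positive log2 fold change, as did 5917 of all 11734 genes tested. Among the 6, the means of ATF4 and ASNS were higher by only 2.03% and 1.97%. CHAC1 passed the filter on low values only through its irradiated libraries, so that nothing is read from the common sign. DDIT3 in irradiated BEAS-2B cells read 31.4, 12.96 and 43.9 FPKM against 16.9, 16.1 and 16.1 in the controls, with replicate 2 below the controls and the other two well above. Without that library the gene passed the threshold, and with it it did not (1.14, adjusted p = 7.54e-04, against 0.65, adjusted p = 0.427, limma).

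**Figure D4:**
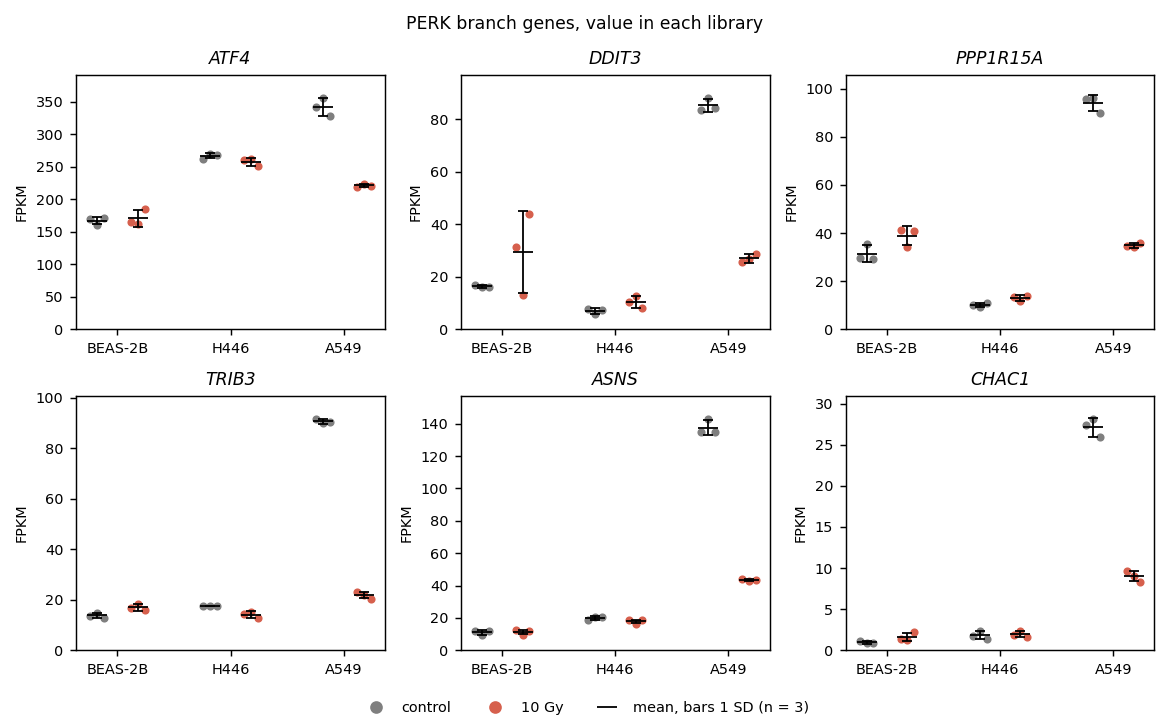
FPKM of the 6 PERK branch genes (one panel each, vertical axis from 0) in the 18 libraries, with the 3 lines on the horizontal axis, controls in grey and 10 Gy in red, and bars giving the mean and 1 SD of 3 libraries. In A549 cells TRIB3 lies at about 90 FPKM in the controls and between 20.5 and 22.9 FPKM after radiation, and DDIT3 of irradiated BEAS-2B cells is spread from 12.96 to 43.9 FPKM.

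The other lists held calls in both directions in A549 cells, at shares of 56.2% to 71.4% beside 51.7% of all genes. In H446 the shares were 19% to 41.7% beside 38.4%, with the calls of the lectin cycle all lower and those of the list of sensors all higher. Of the co-chaperones and secreted factors, 7 of 12 passed in A549 (5 higher) and 5 of 12 in H446 (2 higher). CRELD2 and MANF, secreted proteins of ER stress, rose in A549 by 0.35 and 0.27, and CRELD2 fell in H446 (-0.23). Of the disulfide isomerases and oxidases, 9 of 16 passed in A549 (5 higher) and 6 of 16 in H446 (3 higher). In the lectin cycle, 4 of 7 passed in A549 (3 higher) and 2 of 7 in H446, both lower, among them MOGS, the glucosidase that trims the first glucose of N-glycans (log2 fold change -0.27, SE 0.06, adjusted p = 0.00385, limma). In ER-associated degradation, 13 of 20 passed in A549 (8 higher) and 4 of 21 in H446 (3 higher). DERL3, a derlin of the retrotranslocation machinery, had the largest fall of the listed genes in H446 (log2 fold change -0.81, SE 0.14, adjusted p = 0.00137, limma). Of the translocon and KDEL receptor genes, 9 of 15 passed in A549 (7 higher) and 6 of 15 in H446 (3 higher). Of the list of sensors and their processing, which also holds RTCB and CREB3, 5 of 7 passed in A549 (3 higher) and 2 of 8 in H446, both higher.

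Heat shock proteins of the cytosol and mitochondria, which do not belong to the ER, were followed for contrast. In A549, 12 of 14 passed the threshold (85.7%, beside 51.7% of all genes; 9 higher and 3 lower), with a median log2 fold change of 0.32. HSPA1A (1.34) and HSPA1B (1.31), inducible HSP70 genes whose near-identical copies make their split of reads uncertain, rose furthest, and DNAJA1, a co-chaperone of HSP70, rose by 0.62 (SE 0.03, adjusted p = 3.53e-08, limma). In the same cells HSPA5, their relative in the ER, fell. In H446, 5 of 14 passed (35.7%, beside 38.4% of all genes), all higher, and between 3 and 7 did when 1 library was left out. Among the 5 were HSPH1 (log2 fold change 0.51, SE 0.05, adjusted p = 3.64e-05, limma) and HSP90AA1 (0.37). In BEAS-2B 0 of 14 passed, with or without replicate 2.

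The responses of the genes with the promoter elements shown above are set side by side, as a description. In A549, among the genes with an ERSE, HSPA5 and XBP1 fell while CALR and HSP90B1 rose, and of the genes with an ERSE-II, HERPUD1 fell while SDF2L1 read 0.18 with no call. In H446, HSPA5 and HSP90B1 rose, CALR and XBP1 both read 0.06 with no call, and of the ERSE-II genes HERPUD1 rose and SDF2L1 fell. Of the 85 other pathway genes, CANX, CRELD2, ERO1B and PDIA6 had an ERSE and HYOU1 an ERSE-II within the window.

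The pattern of HSPA5 over the 18 libraries was compared with that of 7041 genes of at least 10 FPKM on average, as the Pearson correlation of log2 values centred within each line. It is a description with no test, since libraries of 1 line share their groups and their technical trends. VCL (0.918), PHF21A (0.909), SQLE (0.905), EXT1 (0.901) and KLF5 (0.898) were most like it. ERN1 and DNAJB9 lay under that level and were not compared. Of the other members, HERPUD1 came nearest (0.803, rank 40), followed by XBP1 (0.522, rank 726) and ATF6 (0.463, rank 975), although within BEAS-2B ATF6 ran the other way (-0.486, against 0.831 in H446 and 0.903 in A549). HSP90B1 (0.210), CALR (-0.0827) and PDIA4 (-0.158) lay lower over the 18 libraries, and SDF2L1 was at -0.529. These pooled values cover differences between the lines, with 6 libraries each. CALR was at -0.780 in A549, 0.755 in BEAS-2B and 0.828 in H446, PDIA4 at -0.765, 0.884 and -0.385 in that order, and HSP90B1 at -0.423, -0.233 and 0.957.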

How the data were processed

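RNA-seq of 18 libraries (3 cell lines, control and 10 Gy, 3 replicates each) was re-analysed. The authors sequenced poly(A) RNA as single-end reads of 50 bases and deposited 1 table, whose values were taken to be FPKM: the unit is not named, and RSEM 1.2.12 (with HISAT2 2.0.4, Bowtie2 2.2.5 and hg38) is listed in the submitters' processing notes. Depth is unknown. Groups came from the labels, and no sample was left out.

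From the deposited FPKM, log2(FPKM + 1) was computed. Genes with at least 1 FPKM in at least 3 of the 6 libraries of a line were fitted with limma 3.58.1 (lmFit, eBayes with trend) in R 4.3.3. Benjamini-Hochberg adjusted p-values cover all genes tested, with a threshold of 0.05. Differences between lines were fitted over 18 libraries with 6 group means, for genes that passed in at least 1 line. The scripts were tested on simulated data. The 10 genes and the lists were chosen with earlier results of these data known. Named beyond the 10 were, per line, the 3 largest rises and falls in the lists among calls without overlap (in BEAS-2B without irradiated replicate 2), and the 5 genes most like HSPA5. Other genes named, such as the rest of the PERK branch, EIF2AK3, CRELD2, MANF and those with promoter matches, were chosen after their values were seen. Gene overlaps came from GENCODE 29, and promoters from RefSeq. Some markers were not analysed here.

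Alternatives were quantile normalization, equal totals, a pseudocount of 0.1, no filter, a filter on every library, no trend, an adjusted p under 0.01, the replicate number as a block, a lowess correction for GC content (span 0.5) with and without the block, 1 fit of 18 libraries and leaving out each library. Counts of PERK branch and heat shock genes under them were added after seeing the data. Figures were made with Python 3.11.15 and matplotlib 3.10.9.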

Additional observations from a re-analysis of the deposited data

Results flagged for a closer look

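In 18 of the 30 tests, the log2 fold change after 10 Gy of 1 of the 10 genes differed between lines, by a test of the difference itself in 1 fit of 18 libraries (adjusted p under 0.05, limma). Of all 13071 genes, 34.6% differed between A549 and H446, 30.6% between BEAS-2B and A549 and 22.7% between BEAS-2B and H446. The 18 differences of the 10 genes are set out here for a closer look. The response of A549 differed from that of H446 for ATF6 by -0.48, CALR by 0.30, ERN1 by -0.66, HERPUD1 by -0.86, HSPA5 by -0.41, PDIA4 by 0.42, SDF2L1 by 0.50 and XBP1 by -0.86 (A549 minus H446). Of these, ATF6, HERPUD1 and HSPA5 rose in H446 and fell in A549 cells, each with groups that did not overlap. The response of BEAS-2B differed from that of A549 for CALR by -0.31, ERN1 by 1.03, HERPUD1 by 0.55, HSPA5 by 0.30, PDIA4 by -0.26 and XBP1 by 0.84 (BEAS-2B minus A549). That of BEAS-2B differed from H446 for ATF6 by -0.40, ERN1 by 0.37, HERPUD1 by -0.30 and HSP90B1 by -0.23 (BEAS-2B minus H446), of which HERPUD1 and HSP90B1 passed in 23 and 22 of 27 alternatives. Under GC correction with the block HERPUD1, HSP90B1 and ERN1 all missed the threshold and ATF6 passed. HSPA5 and PDIA4 between BEAS-2B and A549 passed in 18 and 15 of 27. ERN1 and HERPUD1 differed in all 3 pairs of lines, and DNAJB9 in none. The pairs share libraries, so these differences are not independent of one another.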

How the results depend on the processing

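Depth is unknown, so that counting error could not be separated from the spread between libraries. Of the counts of genes past the threshold, 175 of 192 stayed within 1.5 times the reported value under other settings and 172 of 180 when 1 library was left out, and of the log2 fold changes of the 10 genes 791 of 832 and 1206 of 1260 kept their direction and their side of the threshold. The cause of the exceptions was not tested. At an adjusted p under 0.01, pathway calls in H446 fell to 18, heat shock protein calls to 3, and the 10 genes differing between BEAS-2B and H446 to 1. Quantile normalization left 3 of the 10 differing between BEAS-2B and A549. With no filter, H446 kept 3 calls of the 10 (ATF6 and SDF2L1 were lost) and 1 of the PERK branch, where 3004 of all 18475 genes passed. In A549, HSPA5 and HSP90B1 were lost, where 5441 of all 18475 genes passed. No trend left 3 heat shock protein calls in H446. In 1 fit of 18 libraries, BEAS-2B gained 1 call of the 10 (ERN1), 6 pathway, 2 PERK branch and 1 heat shock protein calls, where 842 of all 13071 genes passed, and H446 had 14 pathway and 3 heat shock protein calls. The deviations of libraries with the same replicate number correlated at -0.125, 0.324 and 0.311 in BEAS-2B. The correlations were 0.0102 to 0.19 in H446 and -0.0993 to 0.01 in A549. The labels do not say whether the numbers pair the libraries, and in BEAS-2B these values cannot decide it. With the replicate number as a block, 439 of all 11734 genes passed in BEAS-2B (0 without the block, and 0 with GC correction and the block), and BEAS-2B had 2 pathway calls, 1 of them in the PERK branch, and 1 heat shock protein call, and with GC correction and the block HSP90B1 in H446 missed the threshold (0.13, adjusted p = 0.0746, limma) and 1 of the 10 differed between BEAS-2B and H446.

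Leaving out 1 library gave 7 to 8 calls of the 10 in A549, 5 to 5 in H446 and 0 to 0 in BEAS-2B, 8 to 8 between A549 and H446, 4 to 7 between BEAS-2B and A549 and 2 to 6 between BEAS-2B and H446 (2 without BEAS-2B control replicate 1, H446 control replicate 2 or H446 10 Gy replicate 2), 42 to 52 pathway calls in A549, 21 to 32 in H446 and 0 to 1 in BEAS-2B (1 without 10 Gy replicate 2, in the PERK branch, which had 0 to 1 there, 2 to 4 in H446 and 6 to 6 in A549), and 3 to 7 heat shock protein calls in H446 (3 without control replicate 1 or 3 or 10 Gy replicate 2). Signs turned for values near 0 (log2). XBP1 of unirradiated H446 against A549 was -0.12 under quantile normalization. Under GC correction, with or without the block, SDF2L1 in BEAS-2B was -0.031, the XBP1 difference in response between BEAS-2B and H446 0.053 and the DNAJB9 difference between A549 and H446 0.037. With 1 library left out, the ranges were -0.055 to 0.14 for SDF2L1 and -0.041 to 0.064 for HERPUD1 in BEAS-2B, -0.057 to 0.047 for CALR and -0.055 to 0.0041 for XBP1 between BEAS-2B and H446, -0.047 to 0.033 for DNAJB9 between A549 and H446, -0.016 to 0.085 for PDIA4 of unirradiated H446 against BEAS-2B and -0.031 to 0.026 for XBP1 against A549.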
